A study of Homo sapiens with 4 samples.

Results

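The genes described here are 30 known targets of the transcription factor p53, followed on 4 expression arrays of the human leukaemia line NOMO-1 in which the zinc finger factor ZFX was knocked down. Members were taken by symbol from the annotation of the array platform, and a probe set counted only where it carried a single gene symbol. Of the 30 genes, 28 had such a probe set, 1 each, among 18417 genes on the array, and BTG2 and FDXR are not analysed here. TP53I3 and SPATA18 lay under the limit on dim genes, a mean log2 intensity of 6.70, and are given as values only. The other 26 members were among the 12892 genes tested. Values are log2 intensities of the deposited table, and a difference of 1 on this scale is a factor of 2.

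NOMO-1 is an acute myeloid leukaemia line of monocytic type. Cells were transduced with lentivirus at a multiplicity of infection of 1 and sampled 48 h after selection. The control group, labelled ZFX wild type, held 2 arrays: LEN-GFP, from a virus that encodes GFP, and SCR, from a virus with a scrambled hairpin. The knock-down group, labelled ZFX knock-down, held 2 arrays of cells with the ZFX hairpins SH1 and SH3. Each construct was measured on 1 array, all in the same line, and all cells carried a lentivirus. The labels do not say whether the cultures were independent, so the p-values measure the spread between these arrays, which includes the construct. The question was whether p53 target genes differ in level when ZFX is reduced, and whether both hairpins give the same picture.

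p53 is a transcription factor that is kept low by the ubiquitin ligase MDM2 and its partner MDM4, and that accumulates after DNA damage and other stress. It then turns on genes that halt the cell cycle, repair DNA, trigger apoptosis or adjust metabolism, and also genes such as MDM2 and PPM1D that shut it off again. In blood cells this programme limits the growth of damaged progenitors, and leukaemias often weaken it. p53 protein was not measured here. In arrays of whole cultures, fewer cells that express a gene and less RNA per cell cannot be told apart.

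Median intensity lay between 184.8 and 189.8 on the 4 arrays. ZFX itself was lower with both hairpins. LEN-GFP and SCR read 10.65 and 10.66, whereas SH1 and SH3 read 10.13 and 10.12. The hairpin arrays were thus at 69.7% and 68.9% of the control level and did not overlap with the controls. Taken alone against both controls, ZFX passed limma's test on SH3 (log2 difference -0.54, SE 0.12, adjusted p = 0.0185) and not on SH1 (-0.52, SE 0.12, adjusted p = 0.121). Of 12 markers of monocytic leukaemia, 9 were on the array and 8 of these lay above the median gene. Their summed intensity lay between 52368 and 54241 on the controls and between 50609 and 52614 on the hairpin arrays. T cell, B cell, erythroid and epithelial markers stood for cells that the culture should not hold. All 6 T cell markers and all 4 erythroid markers lay under the median gene, while 1 of 4 B cell and 2 of 5 epithelial markers lay above it. Their part in the results was not tested.

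Promoter sequences of 23 of the 28 members were found in the RefSeq table of build GRCh38.p14, each from 250 bases before to 50 bases after the annotated start. They were searched on both strands for AGGCCT, the core of the sequence known from sites bound by ZFX, for its longer form AGGCCTAG, which contains the core, and for the p53 consensus decamer, the unit that p53 elements carry as a pair. The core was present in 4 members (17.4%), MDM4, PLK2, XPC and DDB2, against 11% of 27305 promoters. The longer form was present in XPC alone (4.35% of the members against 1.01% of all promoters). The decamer was present in PLK2 and AEN (8.7% against 6.54%). Over the 10210 tested genes with a promoter the shares were 11.2% for the core, 1.03% for the longer form and 5.04% for the decamer. These shares rest on a few genes, and a match is a description of letters, not a bound site. The sequences below are shown because they hold these matches, which are in capitals, and all others are in lower case. MDM4 lies at chr1:204516156-204516455 (plus strand), XPC at chr3:14178552-14178851 (minus strand), PLK2 at chr5:58460037-58460336 (minus strand) and AEN at chr15:88621090-88621389 (plus strand). The capitals mark the ZFX core in MDM4, the longer form in XPC, the core and then the decamer in PLK2, and the decamer in AEN.
MDM4: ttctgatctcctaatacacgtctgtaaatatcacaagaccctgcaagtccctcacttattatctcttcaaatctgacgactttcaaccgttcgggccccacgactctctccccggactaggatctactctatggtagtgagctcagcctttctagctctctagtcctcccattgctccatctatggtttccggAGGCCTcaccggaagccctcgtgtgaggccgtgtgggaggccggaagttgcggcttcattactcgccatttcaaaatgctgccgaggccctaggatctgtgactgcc
XPC: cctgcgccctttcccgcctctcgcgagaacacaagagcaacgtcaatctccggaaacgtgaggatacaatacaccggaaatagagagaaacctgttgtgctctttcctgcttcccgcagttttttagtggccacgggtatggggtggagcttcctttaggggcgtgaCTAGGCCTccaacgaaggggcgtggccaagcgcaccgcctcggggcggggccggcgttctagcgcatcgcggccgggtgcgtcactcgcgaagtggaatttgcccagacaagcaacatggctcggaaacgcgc
PLK2: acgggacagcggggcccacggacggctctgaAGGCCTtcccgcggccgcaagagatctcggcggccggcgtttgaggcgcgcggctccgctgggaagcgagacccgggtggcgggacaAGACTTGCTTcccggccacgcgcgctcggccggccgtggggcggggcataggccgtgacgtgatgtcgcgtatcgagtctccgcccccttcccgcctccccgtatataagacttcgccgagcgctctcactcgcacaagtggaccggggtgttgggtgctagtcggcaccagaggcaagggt
AEN: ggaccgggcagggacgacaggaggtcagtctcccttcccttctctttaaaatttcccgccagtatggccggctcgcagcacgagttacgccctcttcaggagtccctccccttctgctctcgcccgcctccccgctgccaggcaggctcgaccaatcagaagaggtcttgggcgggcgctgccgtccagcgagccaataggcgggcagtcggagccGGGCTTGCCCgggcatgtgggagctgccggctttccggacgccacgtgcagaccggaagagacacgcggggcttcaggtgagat

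The hairpins as one group moved no p53 target past the test. limma called 0 of the 26 members and 0 of all 12892 genes (0%) at an adjusted p of 0.05, and the members' smallest adjusted p was 0.797. ZFX itself, though below both controls with both hairpins, did not pass this test either (-0.53, SE 0.10, adjusted p = 0.797 in limma). The lack of calls therefore does not show that the p53 targets stayed level. At an unadjusted p under 0.05 there were 2 members, TP53INP1 and MDM2, or 7.69% of the 26 against 6.04% of all genes. The median difference over the members was -0.05, beside -0.0029 over all genes. On the lower side were 18 members and on the higher side 8, beside 6544 and 6348 of all genes. Taken singly, SH1 had 20 members lower and 6 higher, whereas SH3 had 12 lower and 14 higher. Both hairpin arrays lay beyond both controls on 9 of 26 members (34.6%), beside 37.2% of all genes, so this share was near the background. The 9 were 7 lower (26.9%, beside 19% of all genes) and 2 higher (7.69%, beside 18.2%). With 2 arrays against 2, an exact permutation test of a single gene cannot go below p = 0.333. Without the SH1 array the members' median was 0.03 and without SH3 it was -0.08, so the hairpins were also examined one by one.

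**Figure D1:**
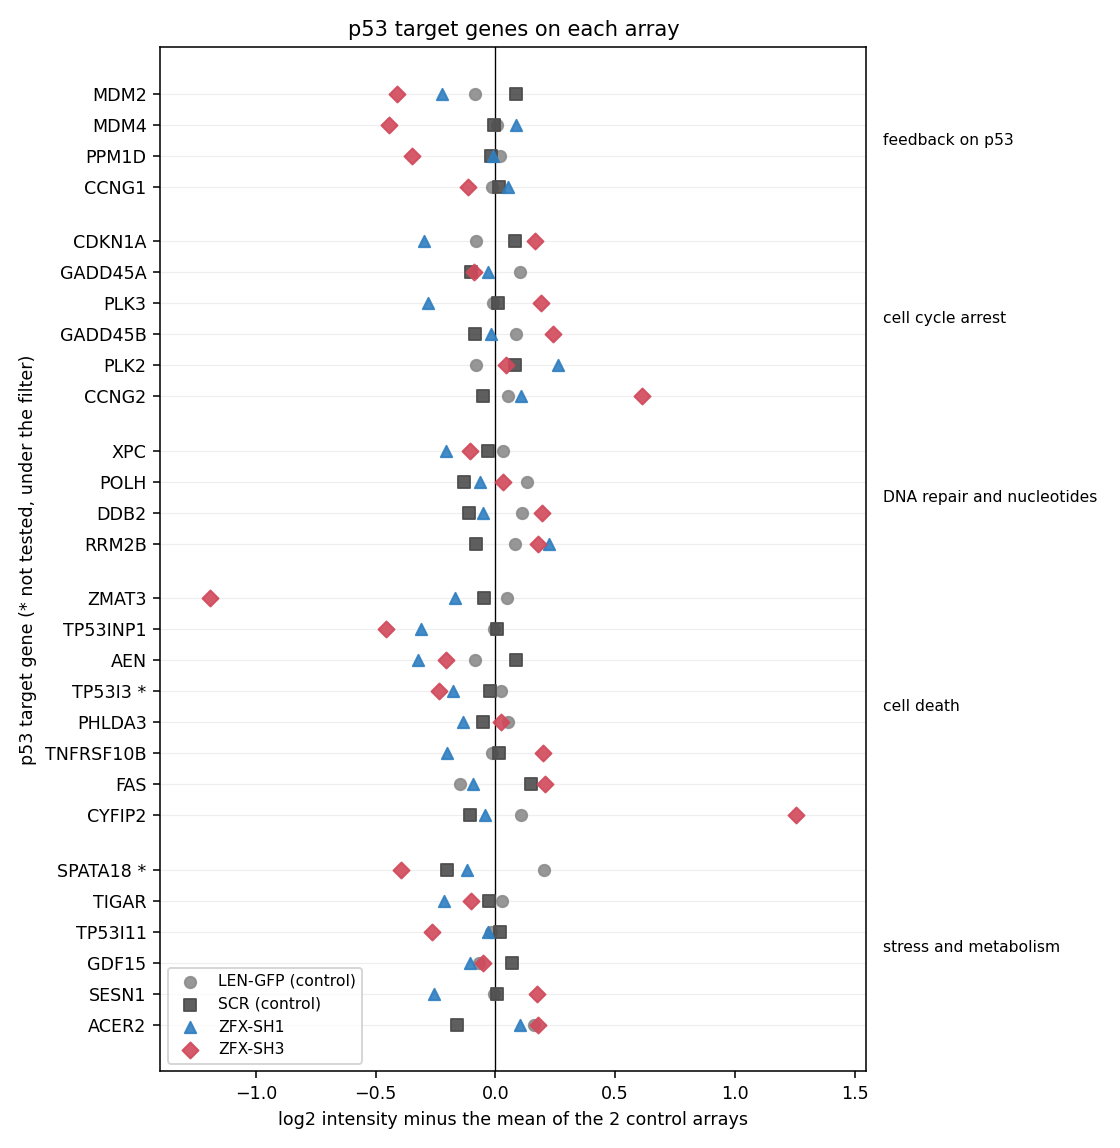
Log2 intensity of each of the 28 p53 target genes on each array, minus the mean of both control arrays (horizontal axis), with genes ordered by role (vertical axis). Each point is 1 array; the SH3 points of ZMAT3 (-1.19), CYFIP2 (1.25) and CCNG2 (0.61) stand farthest from the controls, while the SH1 points stay between -0.33 and 0.26.

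Alone against the controls, SH3 had 5 called members and SH1 had 0. On SH3, ZMAT3, MDM4 and MDM2 fell and CCNG2 and CYFIP2 rose, which is 19.2% of the 26 members, beside 13.3% of all genes called on SH3. The 3 lower members were 11.5% of the 26, beside 7% of all genes, and the 2 higher ones 7.69%, beside 6.33%. On SH1 no member was called, beside 0.403% of all genes, and the smallest adjusted p among members was 0.466 (limma). SH1 lay below both controls on 13 of the 26 (50%, beside 34.8% of all genes) and above both on 5 (19.2%, beside 34.5%). For SH3 these counts were 10 (38.5%, beside 39.8%) and 11 (42.3%, beside 38.7%). At an unadjusted p under 0.05 there were 2 members on SH1 (7.69%, beside 10% of all genes) and 7 on SH3 (26.9%, beside 26.3%). The median over the members was -0.08 on SH1 and 0.03 on SH3, against -6.2e-04 and -0.0015 over all genes. In these comparisons the residual spread comes from the control pair alone, with 1 degree of freedom. The eBayes step moderates it toward a variance trend over all genes, with a prior of 7.85 degrees of freedom. A single hairpin array is assumed to vary like this moderated spread. SH1 and SH3 are set against the same 2 controls, so their values are given side by side and not as independent results.

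**Figure D2:**
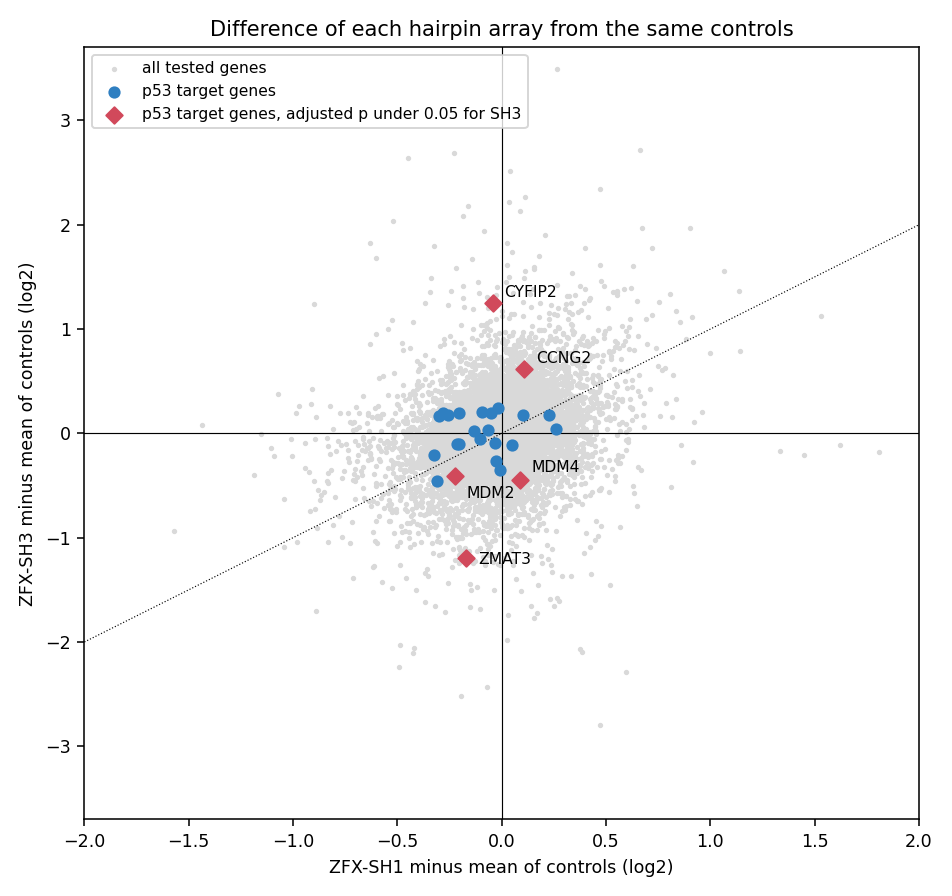
Difference from the mean of both controls in log2 units, SH1 on the horizontal axis and SH3 on the vertical axis, for all 12892 tested genes (grey), the p53 target genes (blue) and the 5 called on SH3 (red). The dotted line marks equal differences; the axes differ in range, and the called members are spread along the SH3 axis, from -1.19 to 1.25, with SH1 values between -0.22 and 0.11.

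The members that restrain p53 were the role in which SH3 was below both controls on each gene tested, 4 of 4, beside 39.8% of all genes. The role is pointed out because of this count, so the count is no test of it. The wider list of p53 regulators had 14 of 28 genes below both controls on SH3 (50%). It had 9 above both (32.1%, beside 38.7% of all genes), COP1 among them. MDM2, the ubiquitin ligase that marks p53 for degradation, read 12.75 on LEN-GFP and 12.92 on SCR, 12.61 on SH1 and 12.42 on SH3. Both hairpin arrays were below both controls. The difference was -0.41 on SH3 (SE 0.09, adjusted p = 0.0213 in limma), or 75.1% of control, and -0.22 on SH1 (SE 0.09, adjusted p = 0.466). MDM4, the relative of MDM2 that masks the activation domain of p53 and whose promoter with the ZFX core is shown above, read 10.95 and 10.94 on the controls, 11.03 on SH1 and 10.50 on SH3. Only the SH3 array was low, at 73.4% of control (-0.45, SE 0.11, adjusted p = 0.0287). SH3 also fell below SH1 itself, by 0.53 (SE 0.13, adjusted p = 0.0354). Without the intensity trend of the variance the SH3 calls of MDM2 (adjusted p = 0.0931) and MDM4 (adjusted p = 0.0553) were lost.

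PPM1D, the phosphatase that removes activating phosphates from p53, read 9.92 on LEN-GFP, 9.89 on SCR, 9.90 on SH1 and 9.56 on SH3. It was at 78.6% of control on SH3 alone and did not pass (-0.35, SE 0.13, adjusted p = 0.120). CCNG1, cyclin G1, which brings a phosphatase to MDM2, read 12.97 and 13.00 on the controls, 13.04 on SH1 and 12.87 on SH3. Its difference on SH3 was -0.12 (SE 0.08, adjusted p = 0.393). The median of these 4 genes was -0.38 on SH3 and 0.02 on SH1, beside values near 0 over all genes.

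**Figure D3:**
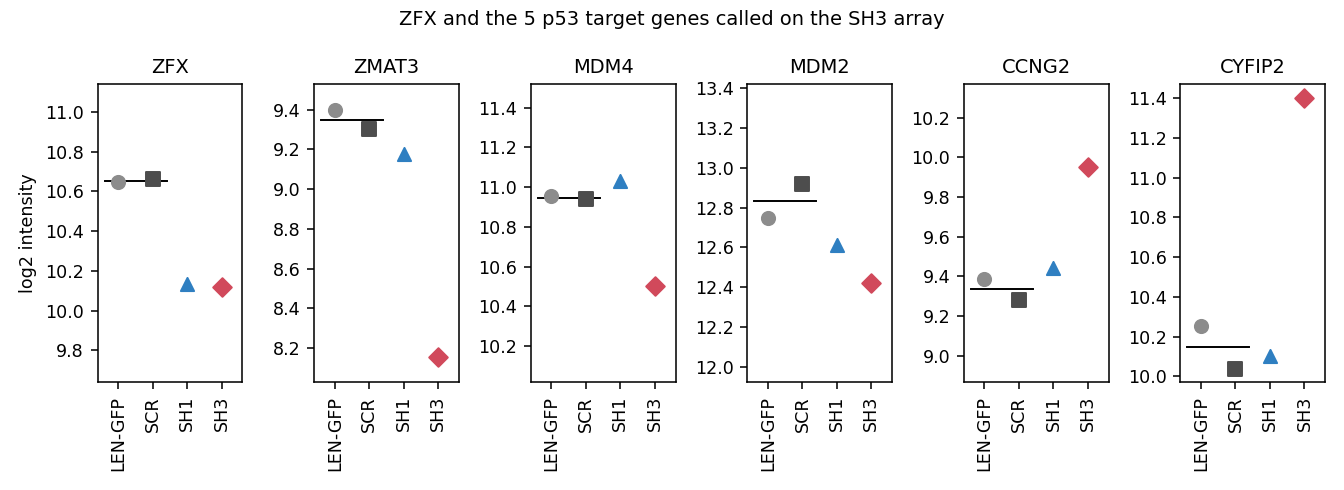
Log2 intensity of ZFX and of the 5 p53 target genes called on SH3, by array; the black line is the mean of both controls and each panel spans the same range of 1.5 log2 units. ZFX was nearly equal on both hairpin arrays (10.13 and 10.12), whereas in ZMAT3, MDM4, CCNG2 and CYFIP2 the SH1 array stayed near the controls and the SH3 array did not.

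Among genes of cell cycle arrest, CCNG2 was the one called. CCNG2, an unconventional cyclin that slows the cycle, read 9.39 on LEN-GFP, 9.28 on SCR, 9.44 on SH1 and 9.95 on SH3. It rose 1.53-fold on SH3 (log2 0.61, SE 0.14, adjusted p = 0.0194) and stood at 0.11 on SH1 (adjusted p = 0.932). Against SH1 the difference of 0.51 (SE 0.16) did not pass (adjusted p = 0.0897), though it did with each array centred on its median (adjusted p = 0.0151).

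CDKN1A encodes p21, the kinase inhibitor through which p53 arrests cells in G1, and is the best known p53 target. It read 9.89 and 10.05 on the controls, 9.67 on SH1 and 10.14 on SH3. SH1 was thus below both controls (-0.30, SE 0.13, adjusted p = 0.505) and SH3 above both (0.17, adjusted p = 0.508). PLK3, a stress-responsive polo-like kinase, had the same order, with 7.51 and 7.53 on the controls, 7.23 on SH1 and 7.71 on SH3. SESN1, a sestrin that curbs growth signalling through mTOR, read 10.41 and 10.43 on the controls, 10.16 on SH1 and 10.59 on SH3. TNFRSF10B, the death receptor DR5, was at 10.81 and 10.84 on the controls, 10.62 on SH1 and 11.03 on SH3. These 4 members, named after their values were seen, were those with SH1 below and SH3 above both controls (15.4% of 26, beside 9.8% of all genes). The opposite split, SH1 above and SH3 below both controls, held for 2 members (7.69%, beside 11.0% of all genes). SH3 exceeded SH1 by 0.46, 0.47, 0.43 and 0.40 in CDKN1A, PLK3, SESN1 and TNFRSF10B, with SE between 0.13 and 0.15 and adjusted p between 0.0911 and 0.112, and so none passed. With each array centred on its median CDKN1A (adjusted p = 0.0235) and SESN1 (adjusted p = 0.0362) did pass, and with a second quantile normalization PLK3 did (adjusted p = 0.0421).

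GADD45A and GADD45B, small stress proteins that bind PCNA and kinases of the p38 pathway, were near the controls. GADD45A read 8.63 and 8.42 on the controls, 8.49 on SH1 and 8.44 on SH3, all within the range set by the controls. GADD45B read 8.93 and 8.76 on the controls, 8.82 on SH1 and 9.08 on SH3, and its SH3 difference of 0.24 had an SE of 0.15. PLK2, a polo-like kinase of the centriole whose promoter above holds both motifs, read 6.92 and 7.09 on the controls, 7.27 on SH1 and 7.05 on SH3. It was the dimmest member kept for testing, and TP53I3 and SPATA18 lay under the limit.

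The repair genes showed small differences, and 0 of 4 were called in any comparison. Of all genes 13.3% were called on SH3 and 8.49% between the hairpins, so 0 of 4 says little about this role. XPC, which detects DNA damage for nucleotide excision repair and whose promoter with AGGCCTAG is shown above, read 7.53 and 7.47 on the controls, 7.29 on SH1 and 7.39 on SH3. Both hairpin arrays were below both controls, at -0.21 and -0.10 (SE 0.13 each). DDB2, which finds ultraviolet lesions, read 10.80 and 10.58 on the controls, 10.64 on SH1 and 10.88 on SH3. POLH, the polymerase that copies past such lesions, stayed within the range of the controls, 9.85 to 10.11, on both hairpin arrays. RRM2B, the p53-induced subunit of ribonucleotide reductase, read 9.69 and 9.53 on the controls and 9.83 and 9.79 on SH1 and SH3. It was above both controls with both hairpins, and its mean difference was 0.20 (SE 0.12, adjusted p = 0.800 in limma).

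Genes of cell death held both the widest fall and the widest rise among the members. ZMAT3, an RNA-binding zinc finger protein that regulates splicing, read 9.40 on LEN-GFP, 9.30 on SCR, 9.18 on SH1 and 8.16 on SH3. On SH3 it fell to 43.7% of control (log2 -1.19, SE 0.14, adjusted p = 0.0013), and the fall was -1.15 against SCR alone and -1.24 against LEN-GFP alone. SH1 was also below both controls, by a mean of 0.17 log2 units, and was not called (adjusted p = 0.836). SH3 fell below SH1 by 1.02 (SE 0.16, adjusted p = 0.00835).

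CYFIP2, a subunit of the WAVE complex of actin assembly that p53 is known to induce, read 10.25 on LEN-GFP, 10.04 on SCR, 10.10 on SH1 and 11.40 on SH3. It rose 2.39-fold on SH3 (log2 1.25, SE 0.13, adjusted p = 7.75e-04), by 1.15 against LEN-GFP and 1.36 against SCR. SH1 lay between the controls, and SH3 exceeded it by 1.30 (SE 0.15, adjusted p = 0.00197). With ZMAT3 and MDM4, CYFIP2 was among the 3 members for which the hairpins differed by test (11.5% of 26, beside 8.49% of all genes). CYFIP2 was the 1 higher on SH3 than on SH1 (1 of 26, beside 4.01% of all genes), and the other 2 were lower (7.69%, beside 4.48%). At an unadjusted p under 0.05 the hairpins differed on 9 members (34.6%, beside 22.2%).

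TP53INP1, a nuclear stress protein that helps activate p53, was the member with the widest gap between the groups. It read 9.50 and 9.51 on the controls, 9.19 on SH1 and 9.05 on SH3, or 80.6% and 72.9% of control. The mean difference was -0.38 (SE 0.12, adjusted p = 0.797, unadjusted p = 0.0243 in limma), and SH3 alone had an adjusted p of 0.0604. Centred arrays (adjusted p = 0.00916) and a second quantile normalization (adjusted p = 0.0402) brought the SH3 difference past the threshold. Its gap of 0.31 log2 units between the nearest hairpin and control array compares with 0.51 for ZFX.

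AEN, an exonuclease that takes part in apoptosis and whose promoter above holds the p53 decamer, read 9.31 and 9.48 on the controls, 9.07 on SH1 and 9.19 on SH3. Both hairpins were below both controls, with a mean difference of -0.27 (SE 0.13, adjusted p = 0.797). FAS, the death receptor of the CD95 ligand, read 9.78 and 10.08 on the controls, 9.83 on SH1 and 10.14 on SH3, and the control arrays alone differed by 0.30. PHLDA3, which blocks AKT at the membrane, read 8.73 and 8.62 on the controls, 8.54 on SH1 and 8.70 on SH3. TP53I3, an oxidoreductase that forms reactive oxygen, was dim, at 6.70 and 6.65 on the controls, 6.50 on SH1 and 6.44 on SH3, and was not tested.

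Of the 5 stress and metabolism genes tested, 0 were called on either hairpin, beside 13.3% of all genes on SH3 and 0.403% on SH1. With so few genes this count says little about the role. TIGAR, which lowers glycolytic flux, read 7.61 and 7.55 on the controls, 7.36 on SH1 and 7.48 on SH3, with both hairpins lower by a mean of -0.16 (SE 0.09, adjusted p = 0.797). TP53I11, a p53-induced membrane protein, was at 8.97 and 9.01 on the controls, 8.96 on SH1 and 8.73 on SH3. There SH1 lay under the lower control by 0.01 only. GDF15, a secreted stress cytokine, read 7.34 and 7.48 on the controls, 7.30 on SH1 and 7.35 on SH3. ACER2, a ceramidase of the Golgi, spanned 7.03 to 7.35 on the controls, with 7.29 on SH1 and 7.36 on SH3. SPATA18, a mediator of mitochondrial quality control, was dim and not tested, with 6.66 and 6.26 on the controls, 6.34 on SH1 and 6.06 on SH3.

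The rest of the pathway was described by 3 lists. The regulators of p53 and its family had 28 of 32 genes tested, and 0 were called with both hairpins together (limma). On SH3 1 was called, TRIM24, a ubiquitin ligase for p53, which fell by 0.78 (SE 0.12, adjusted p = 0.00359), with 10.87 and 10.77 on the controls, 11.00 on SH1 and 10.04 on SH3. That is 3.57% of the list, beside 13.3% of all genes. The groups did not overlap on 14 of 28 regulators (50% beside 37.2%), 7 higher and 7 lower, and the median was -0.03. The ubiquitin ligase COP1 read 10.62 and 10.57 on the controls against 10.84 and 10.86 on the hairpins. The checkpoint kinases CHEK1 and ATM differed by 0.22 and 0.31 as a mean of both hairpins, and CHEK2 by -0.20. Further genes apart in both hairpins were RPL23 (0.22), a ribosomal protein that binds MDM2, PPP1R13B (-0.28), a cofactor of p53 in apoptosis, the p53 relative TP73 (-0.26) and the p53 kinase gene TP53RK (-0.19). HIPK2, a kinase that phosphorylates p53, was low on SH3 only, at 9.90 against 10.25 and 10.35 on the controls and 10.35 on SH1 (adjusted p = 0.0713 for SH3).

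Other genes that p53 can induce had 46 of 54 tested, and here too the hairpins were unlike each other. On SH3 7 were called, 6 higher and 1 lower (15.2%, beside 13.3% of all genes), on SH1 1 was called (2.17%, beside 0.403%), and with both hairpins 0 were. Between the hairpins 9 differed by test (19.6%, beside 8.49%). PRDM1, a repressor that drives terminal differentiation, rose by 1.90 on SH3 (SE 0.15, adjusted p = 3.09e-04), with 7.82 and 7.62 on the controls, 7.93 on SH1 and 9.62 on SH3. PMAIP1, the BH3-only protein NOXA, rose by 0.86 on SH3 (SE 0.14, adjusted p = 0.00486) and stood at -0.28 on SH1. APAF1, which forms the apoptosome, SUSD6 and BLOC1S2 rose on SH3 by 0.54, 0.73 and 0.77, and TRIM32 fell by 0.44, these 4 named after their values were seen. ORAI3 rose by 0.48 on SH3, just inside the threshold (adjusted p = 0.0499). THBS1, the secreted thrombospondin, rose on SH1 instead, by 1.33 (SE 0.15, adjusted p = 0.0158), with 8.66 and 8.89 on the controls, 10.10 on SH1 and 8.60 on SH3.

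In the same list PERP, a desmosomal protein, differed most among genes lower with both hairpins, at 9.25 and 9.02 on the controls, 8.38 on SH1 and 8.77 on SH3 (mean -0.56, SE 0.18, adjusted p = 0.797). HRAS, the GTPase, differed by -0.32, TRAF4 by -0.24 and BTG1, an antiproliferative gene, by -0.17. The groups did not overlap on 17 of the 46 genes (37.0%, beside 37.2% of all genes), 8 higher and 9 lower, and not all are named. Of the higher genes, the 4 with the widest gaps are given. They were ORAI3 (0.33), a calcium channel, TRIM22 (0.29), an interferon-induced ligase, the decoy receptor TNFRSF10D (0.19) and the transcription factor KLF4 (0.19). PRDM1 (1.05) and BLOC1S2 (0.44) were also higher with both, at larger mean differences and narrower gaps. DRAM1, a lysosomal protein of autophagy, was higher on SH1 (0.40) and lower on SH3 (-0.33), and this difference between the hairpins passed (adjusted p = 0.0244).

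Cell cycle genes that p53 represses through p21 and the DREAM complex had 27 of 28 tested. With both hairpins 0 were called, on SH1 0, and on SH3 2 (7.41%, beside 13.3% of all genes). The kinesin KIF23 rose by 0.43 on SH3 (adjusted p = 0.0364, named after its value was seen) and the transcription factor MYBL2 fell by 0.44 (adjusted p = 0.0474). The median was 0.15 on SH3 and -0.01 on SH1, and 15 of the 27 genes lay above both controls on SH3 (55.6%, beside 38.7%). Both hairpins lay on the same side of both controls in 8 genes (29.6%, beside 37.2% of all genes), 6 of them higher and 2 lower. CHEK1, PLK4, PRC1 and KIF11 were above both controls with both hairpins, at mean differences of 0.22, 0.14, 0.11 and 0.19. MAD2L1, a spindle checkpoint gene, and E2F1 were below, at -0.29 and -0.16. AURKB and CENPE, both of the mitotic spindle, were higher on SH3 than on SH1 by 0.42 and 0.41, and neither passed (adjusted p = 0.140 and 0.142).

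**Figure D4:**
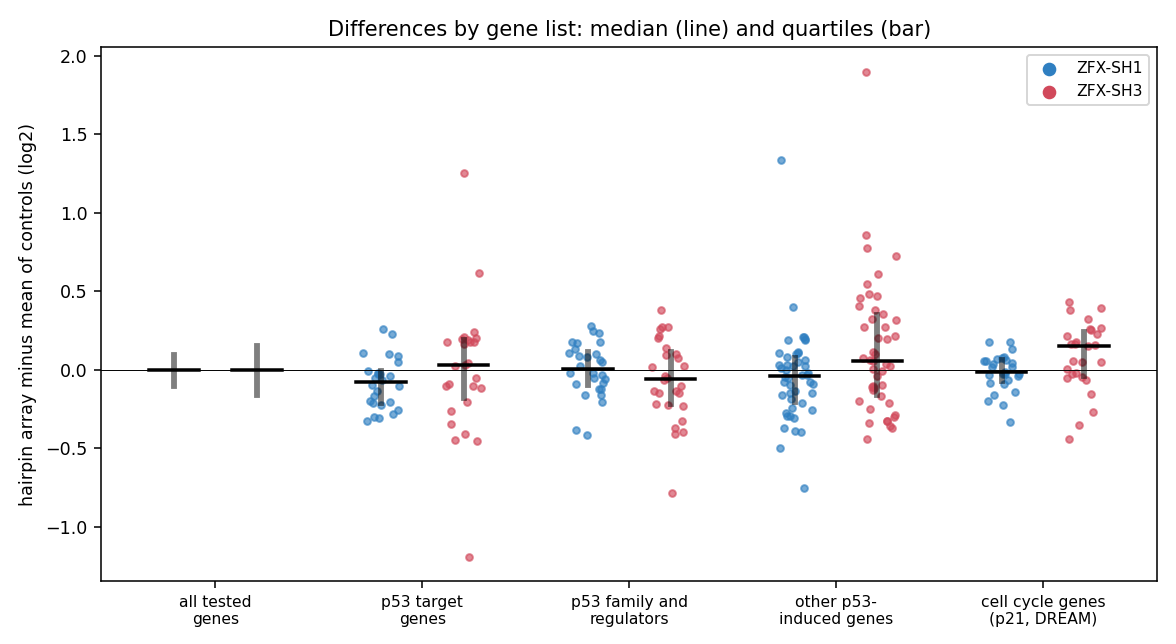
Difference of SH1 (blue) and SH3 (red) from the mean of both controls, in log2 units, for all tested genes (median and quartiles only) and for the genes of each list (1 point a gene, with the list's median as a line and quartiles as a bar). Both hairpins' medians stayed between -0.08 and 0.15 in each list, and the SH3 points spread more widely than the SH1 points.

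The last comparison was between the hairpins themselves. The median size of SH3 minus SH1 over the 26 members was 0.23, beside 0.16 over all genes, and 10 members differed by at least 0.3 (38.5%, beside 26.9%). Difference from the controls had a median size of 0.12 for SH1 and 0.19 for SH3, and the controls differed from each other by a median size of 0.12. ZFX differed between the hairpins by -0.02 only (SE 0.14, adjusted p = 0.969). The monocytic markers had 9 genes tested, of which 7 read higher on SH3 than the control mean, with a median of 0.26, and 6 lay above both controls (66.7%, beside 38.7% of all genes). ANPEP, the aminopeptidase CD13, stood at 0.93 on SH3 and did not pass (adjusted p = 0.0637). MPO, the myeloperoxidase gene of early myeloid cells, was the 1 marker called on SH3 and fell by 1.02 (adjusted p = 2.484e-04), with -0.03 on SH1. CSF1R, a receptor tyrosine kinase of monocytes, rose on SH1 by 0.96 (adjusted p = 0.0355) and stood at 0.21 on SH3. The part of these marker differences in the values of the p53 targets was not tested.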

How the data were processed

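RNA from 4 NOMO-1 cultures, 200 ng each, was amplified with the Ambion WT kit and labelled with biotin, per the labels. The authors deposited linear intensities of 33297 probe sets, made with Affymetrix Expression Console 1.1 and RMA per the submitters' processing notes; how they became linear is not stated in these sources. RMA usually equalizes the arrays' distributions, so a change in total RNA is not visible, and the table has no detection calls.

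The log2 of each intensity was taken without an offset. Of the probe sets, 19460 had 1 gene symbol, and the brightest stood for its gene. The dimmest 30% of genes were left out. The test was limma 3.58.1 (R 4.3.3, eBayes with an intensity trend, two-sided, Benjamini-Hochberg over 12892 genes, threshold 0.05), with 2 residual degrees of freedom for both hairpins and 1 where each hairpin was its own group. The number of arrays limits the precision. Alternatives covered the filter, the trend, the probe set rule, scaling, an offset of 16 and leaving out arrays.

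The members and lists were chosen with earlier results of these data known. All members could be named; of the other lists, up to 4 genes a direction with the widest gap between groups and 2 with the largest difference between hairpins. A gene that the rule also named is not reported here.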

Additional observations from a re-analysis of the deposited data

Results flagged for a closer look

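Among the genes named in the text, those given here differed between the hairpins in limma's test of SH3 against SH1. The spread was taken from the control pair and moderated over all genes. Of these 3 were p53 targets of the main list. SH3 minus SH1 was -0.53 for MDM4 (adjusted p = 0.0354), -1.02 for ZMAT3 (adjusted p = 0.00835) and 1.30 for CYFIP2 (adjusted p = 0.00197). In the wider pathway it was -0.96 for TRIM24 (adjusted p = 0.00452), 1.69 for PRDM1 (adjusted p = 0.00133), 1.14 for PMAIP1 (adjusted p = 0.00433), -1.50 for THBS1 (adjusted p = 0.00207) and -0.73 for DRAM1 (adjusted p = 0.0244). These 5 were named by the size of this same difference, so their test is not independent of their choice. The other 5 were named after their values were seen: 0.55 for APAF1 (adjusted p = 0.0435), 0.88 for SUSD6 (adjusted p = 0.0119), 0.66 for BLOC1S2 (adjusted p = 0.0312), and, among the monocytic markers, -0.99 for MPO (adjusted p = 7.810e-04) and -0.75 for CSF1R (adjusted p = 0.0272). MPO and CSF1R lie on the lower side of their list, and a marker on the higher side passed this test too. Over the 9 monocytic markers tested, SH3 minus SH1 ran from -0.99 to 1.18, with 6 markers higher on SH3 and 3 lower. Each hairpin has 1 array, and a difference between hairpins and one between arrays cannot be told apart.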

How the results depend on the processing

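Among 948 gene values recomputed, 18 moved across the threshold. A reversal was counted only where a value passed the test before or after, and there were 0. Sign changes of values that never passed were not counted. SH1 of GADD45A, for example, was -0.13 against LEN-GFP alone and 0.07 against SCR alone. Values of a single hairpin with a control left out had no test and could not cross the threshold. No member was called with both hairpins under any of the 7 alternatives that kept all 4 arrays. Leaving out arrays gave 0 to 1698 genes and 0 to 5 members (the higher values without SH1; 54 genes without SH3), and a members' median of -0.0804 to 0.0270. On SH1 no alternative called a member, while the count of genes, 52, was 20 with no filter, 4 without the trend, 440 with centred arrays and 144 with a second quantile normalization. On SH3, MDM2 and MDM4 lost their calls without the trend, while centred arrays added TP53INP1 (log2 difference -0.45) and PPM1D (-0.34). Between the hairpins the 3 members called became 2 with no filter or without the trend (MDM4 lost, adjusted p = 0.0590 and 0.0677), and 6 with centred arrays, where 1837 genes were called in place of 1095. ZMAT3, CYFIP2 and CCNG2 kept their SH3 calls under each of the 7 alternatives with a test, at adjusted p up to 0.0324. The members' median on SH3 was -0.0145 with no filter, and lay between -0.0069 and 0.04 with a control left out. On SH1 it lay between -0.144 and -0.0645 with a control left out. Except where genes or arrays were left out, the cause of these changes was not tested. No paired analysis was possible because the labels give the arrays no shared replicate numbers. Signal over background is not known, so values of dim genes such as PLK2, TP53I3 and SPATA18 have no lower bound of detection.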

Other observations

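The 2 control arrays differed on several p53 targets by as much as a hairpin array did. SCR minus LEN-GFP was -0.41 for SPATA18, -0.32 for ACER2, 0.30 for FAS and -0.26 for POLH. For 11 of the 28 members SH1 was closer to the mean of the controls than the controls were to each other, and for 9 of them SH3 was. This count was not made over all genes, so whether it is high or low is not known. The measures are also unlike, because a mean of 2 arrays varies less than 1 array. Over all tested genes the median size of difference was 0.105 between the controls, 0.099 for SH1 and 0.156 for SH3. TP53INP1, MDM4 and SESN1 were among the members on which the controls nearly met, with SCR minus LEN-GFP at 0.01, -0.02 and 0.01. These genes are named after their values were seen.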
